A study of Mus musculus with 32 samples.

Results

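The 10 genes described here encode adaptors, ubiquitin ligases, a kinase and ubiquitin editors that act directly downstream of the TNF receptor superfamily: Traf1, Traf2, Traf3, Birc2, Birc3, Map3k14, Tnfaip3, Tnip1, Cyld and Otud7b. They were picked as the entries whose gene symbol equals one of these 10 names. The rule uses names only, but the names were chosen with earlier results of these data known. All 10 were found among the 54087 genes listed for each library, and all 10 were among the 14313 genes that passed the filter on low counts. The study profiled total RNA of mouse regulatory T cells (Tregs), the Foxp3-expressing CD4 T cells that restrain immune responses, by bulk RNA sequencing of 32 libraries in 11 groups. The cells came from C57BL/6 mice aged 2.5 months that carry the Foxp3-IRES-GFP knock-in allele, and were purified by their Foxp3/GFP signal, so every group shares this allele and this gate.

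In the agonist groups, Tregs were stimulated for 18 h or 36 h on coated anti-CD3 and anti-CD28 antibodies with IL-2 at 10 ng/ml and with an agonist of 1 receptor. STAR2, also labelled TNC-sc(mu)TNF80, engaged TNFR2 at 12 ng/ml, and 3H3, an antibody, engaged 4-1BB at 10 µg/ml. TL1A, the DR3 ligand, was given at 12 ng/ml and OX40L, the ligand of OX40, at 100 ng/ml. The control groups at 18 h and 36 h received anti-CD3, anti-CD28 and IL-2 without an agonist, and the resting group was not stimulated. Every group had 3 libraries except the OX40 agonist at 18 h, which had 2. Doses and kinds of molecule differed between the agonists, so values are set side by side at these doses only. The labels do not say whether libraries of a group came from separate animals or cultures, so p-values measure the spread between these libraries, which may be technical.

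When a TNF receptor without a death domain, such as TNFR2, 4-1BB or OX40, is engaged, its cytoplasmic tail recruits TRAF adaptors, which carry the cIAP ubiquitin ligases (encoded by Birc2 and Birc3) to the receptor. DR3 carries a death domain and recruits the adaptor TRADD, through which TRAF2 and the cIAPs join its complex. In unstimulated cells, a complex of TRAF2, TRAF3 and the cIAPs keeps NIK (encoded by Map3k14), the kinase that starts the noncanonical NF-kB pathway, at a low protein level, and receptor engagement relieves this. A20 (encoded by Tnfaip3), its partner ABIN-1 (encoded by Tnip1) and the deubiquitinases CYLD and Cezanne (encoded by Otud7b) remove or read ubiquitin chains and restrain NF-kB signalling. Tnfaip3, Birc3 and Traf1 are themselves known NF-kB target genes.

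All 10 are protein-coding genes of the GENCODE M21 annotation of build mm10 (GRCm38). Birc2 (chr9:7818227-7837064) and Birc3 (chr9:7848699-7873186) are neighbours on the minus strand. Traf1 and Traf2 lie on chromosome 2, Map3k14 and Tnip1 on 11, and Traf3, Tnfaip3, Cyld and Otud7b on 12, 10, 8 and 3 in that order. The library kit does not mark strand, and other annotated genes overlap 5 of the 10, each with a mean of at most 0.94 counts per library.

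Because several of these genes are known NF-kB targets, their promoter windows were searched for the kB consensus, the sequence class that NF-kB dimers bind, and for the AP-1 core TGANTCA. Both strands were read, in the RefSeq windows of build GRCm38.p6 that run from 250 bases before to 50 bases after a start site. RefSeq windows were found for 9 of the 10 genes, 11 windows in all, since Birc2 and Tnfaip3 each have 2 start sites; Otud7b had no entry. The kB consensus occurred in 4 of the 11 windows, against 8.46% of all 32851 windows, and the AP-1 core in 1, against 7.81%. The windows with a kB match are shown with the matches in capitals, and the Traf1 window, which has none, is shown for contrast. They lie at chr12:111166120-111166419, plus strand (Traf3), chr10:19015361-19015660, minus strand (Tnfaip3, upstream start site), chr11:54962891-54963190, minus strand (Tnip1), chr8:88696778-88697077, plus strand (Cyld) and chr2:34961723-34962022, minus strand (Traf1).
Traf3: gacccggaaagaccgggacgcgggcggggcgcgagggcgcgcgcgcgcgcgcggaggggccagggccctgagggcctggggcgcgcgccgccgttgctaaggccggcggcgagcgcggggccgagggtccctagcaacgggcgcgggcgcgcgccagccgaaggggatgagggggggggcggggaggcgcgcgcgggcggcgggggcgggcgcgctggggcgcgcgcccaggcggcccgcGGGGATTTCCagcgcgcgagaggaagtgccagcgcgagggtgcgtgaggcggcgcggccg
Tnfaip3: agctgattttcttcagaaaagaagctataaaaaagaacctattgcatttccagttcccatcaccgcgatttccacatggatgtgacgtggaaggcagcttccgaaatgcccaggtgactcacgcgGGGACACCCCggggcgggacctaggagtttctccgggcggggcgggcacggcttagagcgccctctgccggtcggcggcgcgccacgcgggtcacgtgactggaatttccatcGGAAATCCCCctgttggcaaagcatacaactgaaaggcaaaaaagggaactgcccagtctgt
Tnip1: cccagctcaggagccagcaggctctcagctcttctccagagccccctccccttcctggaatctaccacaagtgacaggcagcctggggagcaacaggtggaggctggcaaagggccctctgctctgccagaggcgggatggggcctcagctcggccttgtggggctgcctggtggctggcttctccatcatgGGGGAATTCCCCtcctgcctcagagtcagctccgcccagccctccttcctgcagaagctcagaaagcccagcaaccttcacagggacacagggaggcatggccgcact
Cyld: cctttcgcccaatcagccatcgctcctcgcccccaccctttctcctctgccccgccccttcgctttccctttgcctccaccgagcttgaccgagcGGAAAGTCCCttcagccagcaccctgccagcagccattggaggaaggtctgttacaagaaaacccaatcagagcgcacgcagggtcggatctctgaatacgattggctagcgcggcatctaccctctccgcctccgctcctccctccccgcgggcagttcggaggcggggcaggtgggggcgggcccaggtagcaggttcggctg
Traf1: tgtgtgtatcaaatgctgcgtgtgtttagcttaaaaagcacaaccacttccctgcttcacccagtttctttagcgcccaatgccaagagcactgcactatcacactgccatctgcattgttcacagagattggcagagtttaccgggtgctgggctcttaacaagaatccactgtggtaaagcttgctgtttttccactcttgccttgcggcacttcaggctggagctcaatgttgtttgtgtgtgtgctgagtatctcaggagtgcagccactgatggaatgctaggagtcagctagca

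The Tnfaip3 window held 2 kB matches, 1 on each strand, at bases −125 to −116 and −12 to −3 from its start site, and the AP-1 core at −136 to −130, which does not overlap them. The capitals in the Tnip1 window are 3 overlapping matches within bases −58 to −47, so that they amount to a single stretch read in 3 registers. The Traf3 match ended at base −1, directly before the start site, and the Cyld match lay on the opposite strand at −155 to −146. Traf2, Birc3 and Map3k14, both Birc2 windows and the downstream Tnfaip3 window held neither motif. A match describes the letters only, and no binding data were used here.

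**Figure D1:**
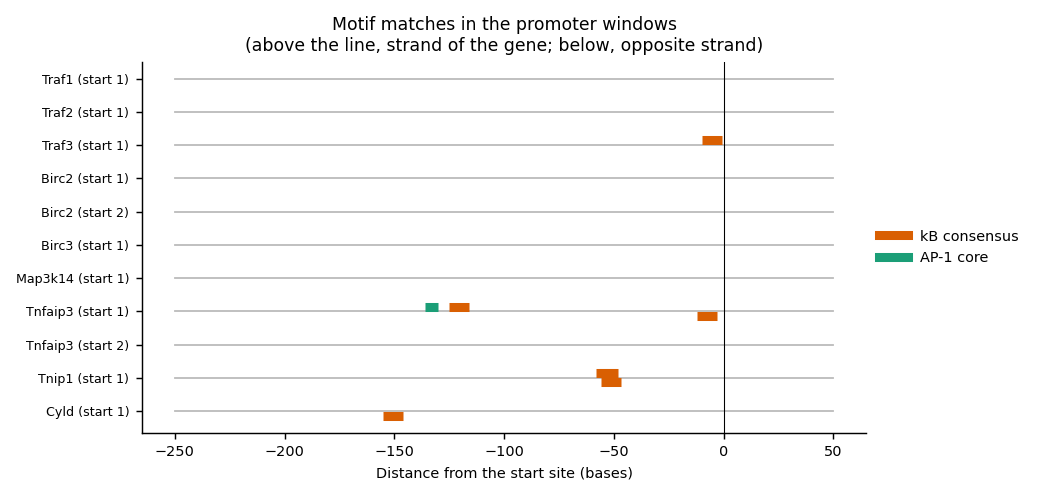
Positions of kB consensus matches and AP-1 core matches in the 11 RefSeq promoter windows of 9 of the genes, as distance in bases from the annotated start site. The kB matches sit in the windows of Tnfaip3 (upstream start site), Tnip1, Traf3 and Cyld.

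Library depth ran between 11880270 and 38083925 estimated counts, and the lowest member level in any library was 26.7 CPM (counts scaled to library size, with TMM factors), for Map3k14. The CPM of the markers and of the ribosomal transcript in this paragraph were scaled to total counts only, without TMM factors. All 6 Treg markers were detected in every group, and Foxp3 itself ran between 353 and 663 CPM over all libraries. It was at 543 to 578 CPM in resting cells, 574 to 590.5 CPM in control cells at 18 h and 365 to 368 CPM at 36 h. Ikzf2 was at 872 to 985, 898 to 924 and 565 to 636 CPM in the same order. Of the other markers, Cd3e was at 286 to 289.5 CPM in control cells at 18 h against 658 to 763 CPM in resting cells, and Cd4 at 337 to 348 against 674 to 704 CPM. Il2ra was at 3214 to 3299 CPM in control cells at 18 h against 629 to 661 CPM in resting cells, and the Treg sum at 5814 to 5973 against 3675 to 3902 CPM. Summed CPM of 8 B cell markers were lower in cultured than in resting cells, at 5.75 to 6.06 in control cells at 18 h against 28.9 to 32.8 in resting cells. For 10 myeloid and dendritic markers the sums were 29.7 to 31.8 in control cells at 18 h against 46.2 to 48.6 in resting cells, most of it Cst3. Those of 8 markers of gamma-delta T, NK and CD8 T cells were 14.2 to 15.2 in control cells at 18 h and 29.9 to 31.2 in resting cells. Siglech was at 0 in all 10 cultured groups and Ncr1 in all 11 groups, while Eomes in the last list was 2.01 to 3.03 CPM in resting cells and 20.2 to 31.2 CPM in the groups at 36 h. A transcript from a ribosomal RNA locus (Gm42418) varied between 741 and 26034 CPM, and 6 libraries exceeded 10000 CPM. They were control at 18 h replicates 1 and 2, TNFR2 agonist replicate 1 at each time, and at 36 h DR3 agonist replicate 3 and OX40 agonist replicate 2. The part of the marker levels in the results was not tested, and results are also given without those 6 libraries where a call changes.

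After stimulation without an agonist, Tnfaip3 fell to 21.97% of its resting level at 18 h, and Birc2, Cyld, Map3k14, Traf1, Tnip1, Birc3 and Traf2 also fell. Of the 10 genes, 9 passed the test between control cells at 18 h and resting cells, 1 higher and 8 lower, where 80.9% of all tested genes passed (40.9% higher and 40.1% lower). At 36 h all 10 passed, 1 higher and 9 lower, where 84.5% of genes passed (42.4% higher and 42.1% lower). Since most genes passed, the count of members that passed is near the background, and what stands beside it is their direction. Separation of control and resting libraries was likewise common. Of all tested genes, 41.2% lay higher and 40.5% lower without overlap at 18 h, and 42.4% and 42.1% at 36 h. Of the 10, 1 lay higher and 8 lower without overlap at 18 h, and 1 and 9 at 36 h. The median log2 fold change of the 10 was −0.63 at 18 h and −0.61 at 36 h, beside −0.01 for all genes at each time. Without regard to direction, the 10 moved less than all genes. The median absolute change was 0.63 for the 10 and 0.82 for all genes at 18 h, and 0.61 and 0.95 at 36 h. Passing means an adjusted p under 0.05 in edgeR's quasi-likelihood test with Benjamini-Hochberg adjustment over the 14313 genes, and fold changes are log2 ± SE. Since these are bulk samples, fewer cells of a kind and less RNA per cell cannot be told apart, and CPM are shares of each library's RNA.

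**Figure D2:**
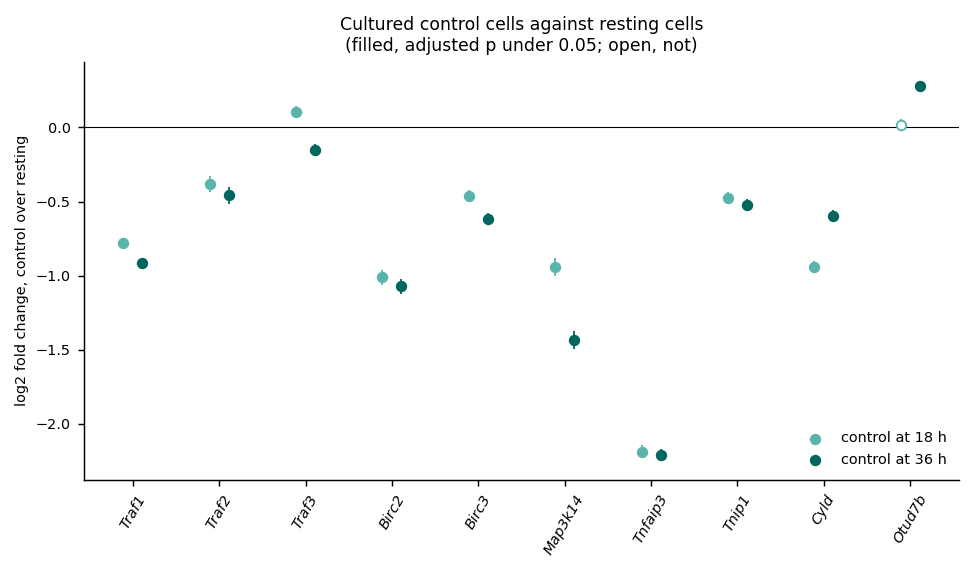
Log2 fold change (with SE) of the 10 genes in control cells at 18 h and at 36 h against resting cells (3 libraries a group). Tnfaip3 lies lowest at both times, at −2.19 and −2.21, and Otud7b at 36 h (0.28) lies above 0.

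Traf1, an adaptor without a RING domain that binds TRAF2 and the cIAPs, stood at 180.1, 174 and 174 CPM in control cells at 18 h and 159, 156 and 166 CPM at 36 h, against 308, 297 and 301 CPM in resting cells. No control library reached the lowest resting one. Traf1 fell by 0.78 ± 0.03 on the log2 scale at 18 h (adjusted p = 7.5e-26) and by 0.91 ± 0.03 at 36 h (adjusted p = 6.16e-29). Traf2, the adaptor that carries the cIAPs to the receptor, stood at 54.7, 50.3 and 52.9 CPM in control cells at 18 h and 52.2, 46.3 and 51.1 CPM at 36 h, against 68.7, 65.3 and 72.0 CPM in resting cells. Every control library lay below every resting one, by a smaller step than for Traf1. The log2 fold changes were −0.38 ± 0.06 (adjusted p = 3.96e-08) at 18 h and −0.46 ± 0.06 (adjusted p = 2.54e-10) at 36 h. Traf3, which ties NIK to the cIAPs for degradation, was at 153, 147 and 150.5 CPM in control cells at 18 h and 128, 125 and 124 CPM at 36 h, against 144, 135 and 140.3 CPM in resting cells. Its control libraries lay above all resting ones at 18 h and below them at 36 h. Its log2 fold change was 0.10 ± 0.04 (adjusted p = 0.018) at 18 h and −0.15 ± 0.04 (adjusted p = 0.000526) at 36 h. The rise at 18 h rested on the scaling, with −0.05 under upper-quartile scaling and −0.02 under a stricter filter on low counts, where it did not pass. It did not pass either with DESeq2 or with its size factors in edgeR (0.05 each, adjusted p = 0.327 and 0.232), without the 6 libraries over 10000 CPM of the ribosomal transcript (adjusted p = 0.0744), or without resting replicate 2 or 3 (0.176 and 0.0557).

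Both cIAP genes and the NIK gene fell at both times. Birc2, which encodes cIAP1, stood at 57.9, 61.2 and 58.4 CPM in control cells at 18 h and 56.1, 58.8 and 55.1 CPM at 36 h, against 116, 125 and 116 CPM in resting cells. These group means are 49.7% and 47.6% of the resting mean, with log2 fold changes of −1.01 ± 0.05 (adjusted p = 3.73e-24) and −1.07 ± 0.05 (adjusted p = 1.44e-25). Control libraries of both times lay below all resting ones. Birc3, which encodes cIAP2, stood at 107, 109.8 and 107 CPM in control cells at 18 h and 101, 94.7 and 94.6 CPM at 36 h, against 150.1, 150.2 and 145 CPM in resting cells. That is 72.7% and 65.2% of the resting mean, with log2 fold changes of −0.46 ± 0.04 (adjusted p = 2.81e-15) and −0.62 ± 0.04 (adjusted p = 4.38e-20). Its control and resting libraries did not overlap. Map3k14, which encodes NIK, stood at 46.9, 42.3 and 43.1 CPM in control cells at 18 h and 31.7, 30.6 and 31.8 CPM at 36 h, against 92.9, 73.7 and 87.9 CPM in resting cells. Its log2 fold changes were −0.94 ± 0.06 (adjusted p = 4.61e-20) and −1.43 ± 0.06 (adjusted p = 3.88e-27). All control libraries lay below the resting ones, of which replicate 2 was the lowest.

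Among the ubiquitin editors, Tnfaip3, which encodes A20, an enzyme that both removes and adds ubiquitin, stood at 118, 121 and 118 CPM in control cells at 18 h and 120.2, 114 and 118 CPM at 36 h, against 572, 527 and 527 CPM in resting cells. Its fold changes were −2.19 ± 0.04 (adjusted p = 3.28e-41) and −2.21 ± 0.04 (adjusted p = 8.85e-42), with group means at 21.97% and 21.7% of the resting mean. These shares were the lowest among the 10 genes. Tnip1, whose product ABIN-1 links A20 to ubiquitin chains, stood at 162, 157 and 159 CPM in control cells at 18 h and 155, 154 and 154 CPM at 36 h, against 225, 215 and 224 CPM in resting cells. It fell by 0.48 ± 0.04 (adjusted p = 6.06e-15) and 0.52 ± 0.04 (adjusted p = 1.63e-16) on the log2 scale, again without overlap. Cyld, a deubiquitinase that trims K63-linked and linear chains, stood at 143, 138 and 137 CPM in control cells at 18 h and 178, 186 and 167 CPM at 36 h, against 259, 279 and 262 CPM in resting cells. Its fold changes were −0.94 ± 0.04 (adjusted p = 1.3e-25) and −0.59 ± 0.04 (adjusted p = 2.54e-18). The Cyld libraries at 36 h lay between those at 18 h and the resting ones. Otud7b, whose product Cezanne deubiquitinates TRAF3, stood at 79.7, 79.1 and 81.5 CPM in control cells at 18 h and 95.7, 94.5 and 97.9 CPM at 36 h, against 77.8, 80.5 and 79.4 CPM in resting cells. At 18 h its libraries overlapped with the resting ones and the fold change was 0.02 ± 0.04 (adjusted p = 0.723). At 36 h it rose by 0.28 ± 0.04 (adjusted p = 5.72e-09), with all control libraries above the resting ones. The Otud7b values depended on the scaling: at 18 h it was lower, at −0.14 (adjusted p = 0.00144) under upper-quartile scaling and −0.10 (adjusted p = 0.0104) under the stricter filter. At 36 h upper-quartile scaling gave 0.08 (adjusted p = 0.057). Upper-quartile scaling moved the median of all genes to −0.16 at 18 h and −0.21 at 36 h.

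Between the control groups, 6 of the 10 genes passed at 36 h against 18 h, 2 higher and 4 lower, where 52.2% of all genes passed (25.6% higher and 26.6% lower). The median log2 fold change of the 10 was −0.07, beside −0.02 for all genes. Without regard to direction, the median change was 0.15 for the 10 and 0.25 for all genes. Cyld rose by 0.35 ± 0.04 (adjusted p = 1.24e-09) and Otud7b by 0.26 ± 0.04 (adjusted p = 4.55e-08). Map3k14 fell by 0.49 ± 0.06 (adjusted p = 2.94e-09) and Traf3 by 0.26 ± 0.04 (adjusted p = 2.8e-07). The control libraries of the 2 times did not overlap for these 4 genes, nor for Traf1, Birc3 and Tnip1, which lay lower at 36 h. That makes 2 members higher and 5 lower without overlap, where 28.7% of all tested genes lay higher and 30.6% lower. Traf1 and Birc3 fell less, with log2 fold changes of −0.14 ± 0.03 (adjusted p = 0.000756) and −0.16 ± 0.04 (adjusted p = 0.000548). Both lost the call without the 6 libraries over 10000 CPM of the ribosomal transcript (adjusted p = 0.0888 and 0.056), a set that leaves 1 control at 18 h. Tnfaip3 (−0.02, adjusted p = 0.719), Tnip1 (−0.05, adjusted p = 0.355), Birc2 (−0.06, adjusted p = 0.314) and Traf2 (−0.08, adjusted p = 0.253) did not pass.

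**Figure D3:**
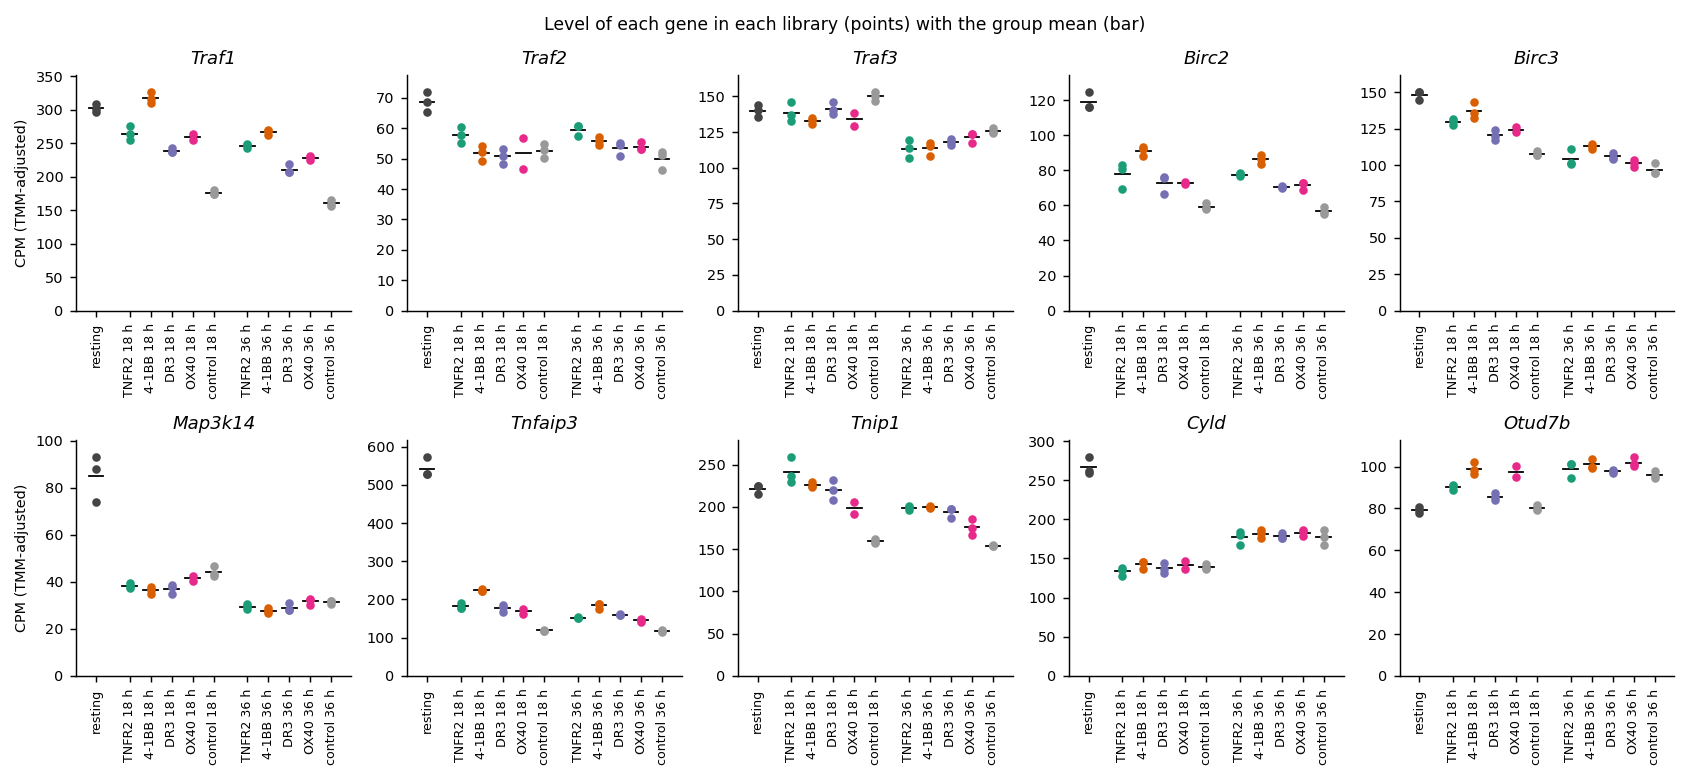
Level in CPM (vertical axis, TMM-scaled) of each of the 10 genes in every library; each point is 1 library, bars mark group means, and labels such as TNFR2 18 h name the agonist groups. In the 4-1BB agonist group at 18 h, Traf1 (309.7 to 326 CPM) lies above the resting libraries (297 to 308 CPM), while Tnfaip3 (221 to 229 CPM) lies below them (527 to 572 CPM).

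With an agonist, Traf1, Birc2, Tnfaip3 and Tnip1 rose above the control of the same time in all 8 comparisons, by 0.19 to 0.91 on the log2 scale, and Birc3 rose in 7. Traf3 fell in 5 of the 8 and Map3k14 in 4, Otud7b rose in 3 and Traf2 in 2, and Cyld passed in 0. At 18 h, 8 of the 10 passed with the TNFR2 agonist, 6 higher and 2 lower, where 31.1% of genes passed (15.8% higher and 15.3% lower). At this time 8 of the 10 passed with the 4-1BB agonist, 6 higher and 2 lower, where 25.8% of genes passed (12.7% higher and 13.1% lower). With both agonists, the genes that fell were Traf3 and Map3k14. At 18 h, too, 6 of the 10 passed with the DR3 agonist, 5 higher and 1 lower, where 19.6% of genes passed (9.66% higher and 9.94% lower). In the OX40 comparison at 18 h, 7 of the 10 passed with the OX40 agonist, 6 higher and 1 lower, where 19% of genes passed (9.32% higher and 9.71% lower). The gene that fell was Map3k14 with DR3 and Traf3 with OX40. At 36 h, 7 of the 10 passed with the TNFR2 agonist, 6 higher and 1 lower, where 24.8% of genes passed (13% higher and 11.9% lower). By then 8 of the 10 passed with the 4-1BB agonist, 6 higher and 2 lower, where 22.5% of genes passed (10.9% higher and 11.5% lower). Traf3 fell with both agonists at 36 h, and Map3k14 with 4-1BB. At the later time 5 of the 10 passed with the DR3 agonist, 5 higher and 0 lower, where 13.4% of genes passed (6.97% higher and 6.39% lower). In the OX40 comparison at 36 h, 4 of the 10 passed with the OX40 agonist, 4 higher and 0 lower, where 13.3% of genes passed (7.12% higher and 6.21% lower). The median log2 fold change of the 10 at 18 h was 0.22 for TNFR2, 0.32 for 4-1BB, 0.13 for DR3 and 0.24 for OX40. At 36 h it was 0.18, 0.19, 0.12 and 0.10 in the same order, while that of all genes ran between −0.01 and 0.0024 over the 8 comparisons. The agonist groups of 1 time share their control libraries, so their differences are not independent of each other. Where libraries are said below not to overlap with the controls, the share of all tested genes matters. Over the 8 comparisons, 14.6% to 21.5% of them lay higher and 13.9% to 23.0% lower without overlap.

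**Figure D4:**
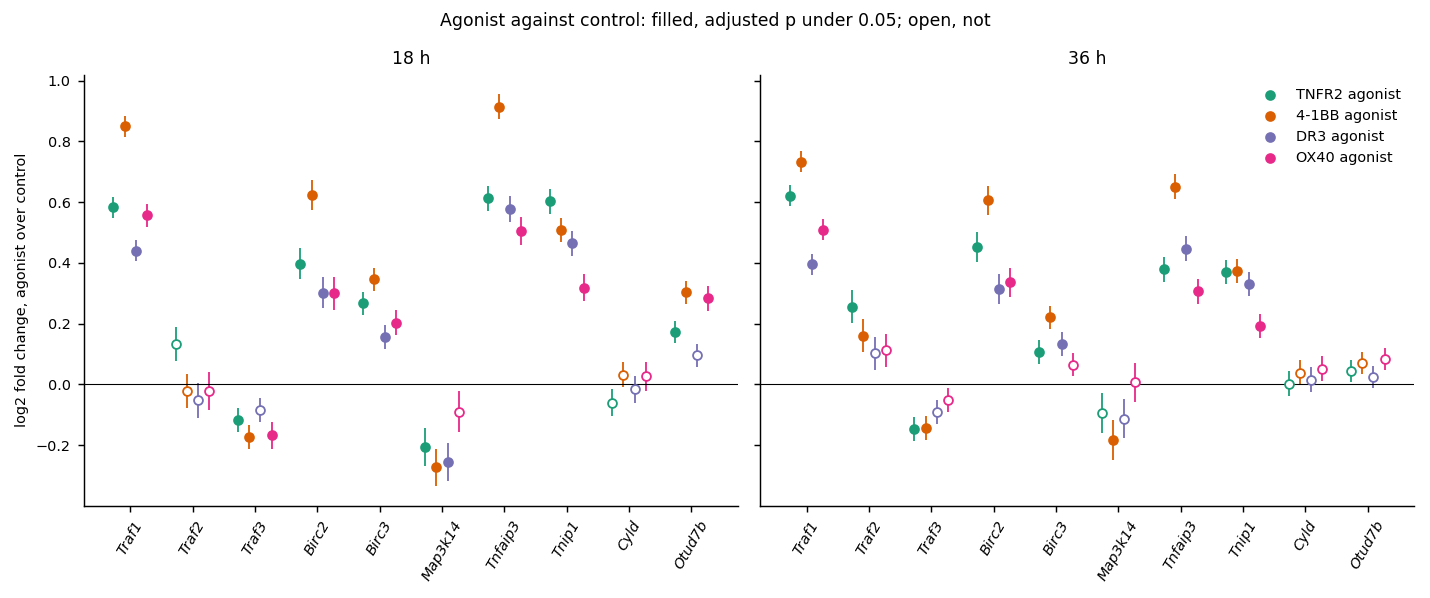
Log2 fold change of each gene in the 4 agonist groups against the control of the same time, at 18 h and 36 h, with SE. Traf1, Birc2, Tnfaip3 and Tnip1 lie above 0 in all 8 comparisons, with the 4-1BB agonist at 18 h at 0.85 for Traf1 and 0.91 for Tnfaip3.

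Traf1 at 18 h stood at 263, 275 and 254 CPM with the TNFR2 agonist and 326, 309.7 and 317 CPM with the 4-1BB agonist. With the DR3 and OX40 agonists, Traf1 stood at 237, 237 and 243 CPM and 255 and 264 CPM, against 180.1, 174 and 174 CPM in control cells. All 11 agonist libraries lay above all 3 controls, and the 4-1BB agonist libraries also lay above the resting ones, at 105% of the resting mean. Traf1 rose by 0.58 ± 0.03 with TNFR2, 0.85 ± 0.03 with 4-1BB, 0.44 ± 0.03 with DR3 and 0.56 ± 0.04 with OX40, with 2.11e-14 as the highest adjusted p. Traf1 at 36 h stood at 247, 249 and 243 CPM with the TNFR2 agonist and 262, 268 and 269 CPM with the 4-1BB agonist. With the DR3 and OX40 agonists of that time, Traf1 stood at 218, 207 and 206 CPM and 230.1, 224 and 229.6 CPM, against 159, 156 and 166 CPM in control cells. The 5 groups did not overlap at 36 h: the 4-1BB agonist libraries were highest, followed by TNFR2, OX40 and DR3, with the controls lowest. The rises were 0.62 ± 0.03 with TNFR2, 0.73 ± 0.03 with 4-1BB, 0.40 ± 0.03 with DR3 and 0.51 ± 0.03 with OX40, with 7.98e-13 as the highest adjusted p.

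Traf2 libraries at 18 h spanned 49.3 to 54.1 CPM with the 4-1BB agonist, 48.1 to 53.3 CPM with DR3 and 46.6 to 56.9 CPM with OX40, against 50.3 to 54.7 CPM in the control, and all 3 overlapped with it. The TNFR2 agonist libraries, at 55.1 to 60.3 CPM, lay above the control ones, but the difference of 0.13 ± 0.06 did not pass (adjusted p = 0.0658). It passed without control replicate 1 (adjusted p = 0.0493) or TNFR2 agonist replicate 3 (0.0203), and with DESeq2 size factors (0.0416). At 36 h, Traf2 stood at 60.8, 60.6 and 57.4 CPM with the TNFR2 agonist and 55.7, 54.5 and 57.1 CPM with the 4-1BB agonist, against 52.2, 46.3 and 51.1 CPM in the control cells. Neither agonist group overlapped with the control. Traf2 rose by 0.26 ± 0.05 with the TNFR2 agonist (adjusted p = 0.000324) and by 0.16 ± 0.05 with the 4-1BB agonist (adjusted p = 0.0263). The 4-1BB value lost its call without control replicate 2 (adjusted p = 0.207), 4-1BB agonist replicate 1 (0.0559) or 3 (0.103), or the libraries over 10000 CPM of the ribosomal transcript (0.0596). The differences with DR3 and OX40 at 36 h, 0.10 ± 0.05 (adjusted p = 0.231) and 0.11 ± 0.05 (adjusted p = 0.188), did not pass.

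Traf3 at 18 h stood at 133, 146 and 137 CPM with the TNFR2 agonist and 135, 133 and 131 CPM with the 4-1BB agonist. The DR3 and OX40 agonist groups stood at 141, 146 and 138 CPM and 129.5 and 138 CPM, against 153, 147 and 150.5 CPM in control cells. Every agonist library lay below every control library, although the highest TNFR2 agonist library missed the lowest control by less than 1 CPM. The differences were −0.12 ± 0.04 (adjusted p = 0.022) with TNFR2, −0.17 ± 0.04 (adjusted p = 0.000561) with 4-1BB, −0.08 ± 0.04 (adjusted p = 0.14) with DR3 and −0.17 ± 0.04 (adjusted p = 0.00473) with OX40. TNFR2 did not pass without control replicate 1 (adjusted p = 0.105) or 3 (0.0666), TNFR2 agonist replicate 1 (0.161) or 3 (0.0996), or with DESeq2 (0.0544), nor OX40 without OX40 agonist replicate 1 (0.129). Without the libraries over 10000 CPM of the ribosomal transcript, neither TNFR2 (−0.10, adjusted p = 0.391) nor OX40 (−0.17, adjusted p = 0.0896) passed. Traf3 at 36 h stood at 114, 107 and 119.7 CPM with the TNFR2 agonist and 108, 116 and 117 CPM with the 4-1BB agonist. The DR3 and OX40 agonist groups of that time stood at 120.0, 118 and 116 CPM and 117, 124 and 124 CPM, against 128, 125 and 124 CPM in control cells. The agonist groups again lay below the controls. Their differences were −0.15 ± 0.04 (adjusted p = 0.00494) with TNFR2, −0.14 ± 0.04 (adjusted p = 0.00555) with 4-1BB, −0.09 ± 0.04 (adjusted p = 0.135) with DR3 and −0.05 ± 0.04 (adjusted p = 0.474) with OX40. TNFR2 did not pass without TNFR2 agonist replicate 2 (adjusted p = 0.0936), nor 4-1BB without 4-1BB agonist replicate 1 (0.0717).

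Birc2 at 18 h stood at 80.8, 69.5 and 82.9 CPM with the TNFR2 agonist and 92.1, 93.2 and 88.1 CPM with the 4-1BB agonist. In the DR3 and OX40 agonist groups, Birc2 stood at 76.0, 75.7 and 66.6 CPM and 73.2 and 72.4 CPM, against 57.9, 61.2 and 58.4 CPM in control cells. The 4-1BB agonist libraries were above all other cultured libraries of that time and reached 76.6% of the resting mean. Birc2 rose by 0.40 ± 0.05 with TNFR2, 0.62 ± 0.05 with 4-1BB, 0.30 ± 0.05 with DR3 and 0.30 ± 0.06 with OX40, with 4.5e-05 as the highest adjusted p. Birc2 at 36 h stood at 77.8, 78.3 and 76.6 CPM with the TNFR2 agonist and 86.5, 83.6 and 88.7 CPM with the 4-1BB agonist. In the DR3 and OX40 agonist groups of that time, Birc2 stood at 69.8, 70.5 and 71.1 CPM and 72.6, 73.0 and 68.7 CPM, against 56.1, 58.8 and 55.1 CPM in control cells. The 4-1BB libraries lay above the TNFR2 ones, and both above the overlapping DR3 and OX40 libraries. The rises were 0.45 ± 0.05 with TNFR2, 0.61 ± 0.05 with 4-1BB, 0.31 ± 0.05 with DR3 and 0.34 ± 0.05 with OX40, with 3.48e-06 as the highest adjusted p.

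Birc3 at 18 h stood at 128, 130.1 and 132 CPM with the TNFR2 agonist and 136, 143 and 132 CPM with the 4-1BB agonist. With the DR3 and OX40 agonists, Birc3 stood at 118, 119.7 and 124 CPM and 123 and 126 CPM, against 107, 109.8 and 107 CPM in control cells. No agonist library overlapped with a control at 18 h, and the 4-1BB agonist group was at 92.4% of the resting mean. Birc3 rose by 0.27 ± 0.04 with TNFR2, 0.35 ± 0.04 with 4-1BB, 0.16 ± 0.04 with DR3 and 0.20 ± 0.04 with OX40, with 0.00226 as the highest adjusted p, although DR3 did not pass without the libraries over 10000 CPM of the ribosomal transcript (adjusted p = 0.0878). Birc3 at 36 h stood at 101, 101 and 111 CPM with the TNFR2 agonist and 113, 111 and 115 CPM with the 4-1BB agonist. With the DR3 and OX40 agonists of that time, Birc3 stood at 109, 104 and 105 CPM and 102, 103 and 98.8 CPM, against 101, 94.7 and 94.6 CPM in control cells. The TNFR2 and OX40 libraries overlapped with the controls at 36 h. The differences were 0.11 ± 0.04 (adjusted p = 0.0353) with TNFR2, 0.22 ± 0.04 (adjusted p = 9.51e-06) with 4-1BB, 0.13 ± 0.04 (adjusted p = 0.0121) with DR3 and 0.06 ± 0.04 (adjusted p = 0.308) with OX40. TNFR2 did not pass without control replicate 2 (adjusted p = 0.134) or 3 (0.137) or TNFR2 agonist replicate 3 (0.312), nor in 4 other settings (0.0616 to 0.162). DR3 did not pass without control replicate 2 (adjusted p = 0.068) or 3 (0.069) or DR3 agonist replicate 1 (0.0959), or without a filter on low counts (0.0525).

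Map3k14 at 18 h stood at 38.0, 39.4 and 37.4 CPM with the TNFR2 agonist and 34.8, 36.7 and 38.0 CPM with the 4-1BB agonist. The DR3 and OX40 agonist groups stood at 34.6, 37.7 and 38.5 CPM and 40.4 and 42.6 CPM, against 46.9, 42.3 and 43.1 CPM in control cells. The TNFR2, 4-1BB and DR3 agonist libraries all lay below the controls, and the OX40 ones overlapped with them. The differences were −0.20 ± 0.06 (adjusted p = 0.00868) with TNFR2, −0.27 ± 0.06 (adjusted p = 0.000515) with 4-1BB, −0.26 ± 0.06 (adjusted p = 0.00235) with DR3 and −0.09 ± 0.07 (adjusted p = 0.407) with OX40. TNFR2 did not pass without control replicate 1 (adjusted p = 0.0884). Without the libraries over 10000 CPM of the ribosomal transcript, the values were −0.17 for TNFR2, −0.24 for 4-1BB and −0.23 for DR3, and none of the 3 passed (adjusted p = 0.273, 0.0671 and 0.136). Map3k14 at 36 h stood at 30.4, 28.3 and 29.5 CPM with the TNFR2 agonist and 27.4, 28.8 and 26.7 CPM with the 4-1BB agonist. The DR3 and OX40 agonist groups of that time stood at 28.1, 31.0 and 28.1 CPM and 30.2, 32.4 and 32.5 CPM, against 31.7, 30.6 and 31.8 CPM in control cells. The TNFR2 and 4-1BB agonist libraries lay below the controls, and the DR3 and OX40 ones overlapped with them. The 4-1BB agonist difference of −0.18 ± 0.06 passed (adjusted p = 0.0351). It did not pass without control replicate 1 (adjusted p = 0.0876), 2 (0.0511) or 3 (0.0855), 4-1BB agonist replicate 1 (0.0897) or 3 (0.142), or with DESeq2 (0.0705). The other differences at 36 h, −0.09 for TNFR2, −0.11 for DR3 and 0.01 for OX40, did not pass (adjusted p = 0.322, 0.273 and 0.97).

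Tnfaip3 at 18 h stood at 178, 177 and 192 CPM with the TNFR2 agonist and 221, 229 and 223 CPM with the 4-1BB agonist. In the DR3 and OX40 agonist groups, Tnfaip3 stood at 166, 181 and 186 CPM and 162 and 176 CPM, against 118, 121 and 118 CPM in control cells. All 11 agonist libraries lay above the controls, yet the group means were between 31.2% and 41.4% of the resting mean. Tnfaip3 rose by 0.61 ± 0.04 with TNFR2, 0.91 ± 0.04 with 4-1BB, 0.58 ± 0.04 with DR3 and 0.50 ± 0.05 with OX40, with 2.79e-12 as the highest adjusted p. Tnfaip3 at 36 h stood at 155, 151 and 152 CPM with the TNFR2 agonist and 175, 189 and 189 CPM with the 4-1BB agonist. In the DR3 and OX40 agonist groups of that time, Tnfaip3 stood at 159, 160.2 and 161 CPM and 148, 147 and 139.9 CPM, against 120.2, 114 and 118 CPM in control cells. At 36 h the 4 agonist groups did not overlap with each other: 4-1BB was highest, followed by DR3, TNFR2 and OX40. The rises were 0.38 ± 0.04 with TNFR2, 0.65 ± 0.04 with 4-1BB, 0.45 ± 0.04 with DR3 and 0.31 ± 0.04 with OX40, with 1.35e-07 as the highest adjusted p.

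Tnip1 at 18 h stood at 237, 259 and 229 CPM with the TNFR2 agonist and 230.1, 225 and 224 CPM with the 4-1BB agonist. With the DR3 and OX40 agonists, Tnip1 stood at 219.8, 208 and 232 CPM and 191 and 206 CPM, against 162, 157 and 159 CPM in control cells. The TNFR2 agonist libraries lay above the resting ones (215 to 225 CPM), which the 4-1BB and DR3 libraries overlapped. Tnip1 rose by 0.60 ± 0.04 with TNFR2, 0.51 ± 0.04 with 4-1BB, 0.46 ± 0.04 with DR3 and 0.32 ± 0.04 with OX40, with 2.42e-07 as the highest adjusted p. Tnip1 at 36 h stood at 196 to 201 CPM with the TNFR2 agonist and 199.6, 198 and 201 CPM with the 4-1BB agonist. With the DR3 and OX40 agonists of that time, Tnip1 stood at 197, 197 and 187 CPM and 175, 167 and 186 CPM, against 155, 154 and 154 CPM in control cells. The 4-1BB and TNFR2 libraries overlapped with each other, and the OX40 libraries lay between them and the controls. The rises were 0.37 ± 0.04 with TNFR2, 0.37 ± 0.04 with 4-1BB, 0.33 ± 0.04 with DR3 and 0.19 ± 0.04 with OX40, with 0.000394 as the highest adjusted p.

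Cyld agonist libraries overlapped with the controls in all 8 comparisons, at 127 to 147 CPM with an agonist against 137 to 143 CPM without at 18 h, and at 168 to 187 CPM against 167 to 186 CPM at 36 h. None of the 8 differences passed in edgeR, at an unadjusted p under 0.05 or in DESeq2, and their 95% intervals together ran between −0.14 and 0.13 on the log2 scale. Otud7b at 18 h stood at 90.8, 88.8 and 91.2 CPM with the TNFR2 agonist and 96.3, 98.1 and 102 CPM with the 4-1BB agonist. The DR3 and OX40 agonist groups stood at 84.1, 85.5 and 87.3 CPM and 94.9 and 100.3 CPM, against 79.7, 79.1 and 81.5 CPM in control cells. All 11 agonist libraries lay above the controls, and 4-1BB and OX40 overlapped at the top. The differences were 0.17 ± 0.04 (adjusted p = 0.000297) with TNFR2, 0.30 ± 0.04 (adjusted p = 4.17e-09) with 4-1BB, 0.10 ± 0.04 (adjusted p = 0.0728) with DR3 and 0.28 ± 0.04 (adjusted p = 5.18e-07) with OX40. TNFR2 was at 0.14 (adjusted p = 0.155) without the libraries over 10000 CPM of the ribosomal transcript. At 36 h, Otud7b ran between 94.8 and 104 CPM over the 12 agonist libraries, against 94.5 to 97.9 CPM in the control cells, and none of the 4 differences (0.03 to 0.08) passed.

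The agonists were also set against each other in 6 pairs at each time, at doses that differ, with p-values adjusted over all genes and all 12 pairs. Of the 120 values for the 10 genes, 35 had an adjusted p under 0.05, where 4.61% of all values did. Traf1 had 10 of them, Tnfaip3 and Tnip1 7 each, Birc2 5, and Birc3 and Otud7b 3 each, while Traf2, Traf3, Map3k14 and Cyld had 0. Of the 60 values that involve the 4-1BB agonist, 24 were higher with 4-1BB and 0 lower, beside 2.36% and 2.65% of all values. At 18 h, Traf1 was higher with 4-1BB than with TNFR2 by 0.27 ± 0.03 (adjusted p = 1.12e-07), than with DR3 by 0.41 ± 0.03 (adjusted p = 1.01e-12) and than with OX40 by 0.29 ± 0.04 (adjusted p = 1.77e-07). Tnfaip3 was higher with 4-1BB by 0.30 ± 0.04 (adjusted p = 4.91e-07) against TNFR2, 0.34 ± 0.04 (adjusted p = 4.78e-08) against DR3 and 0.41 ± 0.05 (adjusted p = 5.17e-09) against OX40. At 36 h, Tnfaip3 was again higher with 4-1BB, in the same order by 0.27 ± 0.04 (adjusted p = 5.93e-06), 0.20 ± 0.04 (adjusted p = 0.000599) and 0.34 ± 0.04 (adjusted p = 2.78e-08). Birc2 was higher with 4-1BB than with DR3 at 18 h by 0.32 ± 0.05 (adjusted p = 7.23e-06) and at 36 h by 0.29 ± 0.05 (adjusted p = 2.57e-05). Tnip1 was higher with TNFR2 than with OX40 at 18 h by 0.28 ± 0.04 (adjusted p = 1.3e-05). For Tnip1, 4-1BB against TNFR2 at 18 h gave −0.09 ± 0.04 (adjusted p = 0.187), which did not pass. Otud7b was lower with DR3 than with OX40 at 18 h, with a difference of −0.19 ± 0.04 (adjusted p = 0.00269), which did not pass without OX40 agonist replicate 2 or with only those groups in the fit (adjusted p = 0.289 and 0.17). Under the alternative settings, those given for Otud7b included, p-values were adjusted over genes within each pair only. Of the 35 values, 32 also passed with that adjustment in the main fit. Of these, 19 passed under every alternative setting, among them each value for Traf1, Tnfaip3, Birc2 and Tnip1 printed here as passing. For the 4 genes with no passing pair, the 95% interval of the difference between 4-1BB and TNFR2 at 18 h was −0.26 to −0.04 for Traf2, −0.14 to 0.02 for Traf3, −0.19 to 0.06 for Map3k14 and 0.01 to 0.18 for Cyld. In a joint test over the 4 agonists, 6 of the 10 genes differed at 18 h and 5 at 36 h, where 14.3% and 9.06% of all genes did. Traf2, not among the 6 at 18 h, passed without TNFR2 agonist replicate 3, 4-1BB agonist replicate 2, DR3 agonist replicate 3 or OX40 agonist replicate 1 or 2 (adjusted p = 0.00346 to 0.0444). At 36 h, Birc3 did not pass without 4-1BB agonist replicate 1 (adjusted p = 0.0731) or 3 (0.129) or OX40 agonist replicate 1 (0.0547) or 3 (0.0713), nor Tnip1 without OX40 agonist replicate 2 (0.0776). Without the libraries over 10000 CPM of the ribosomal transcript, neither Birc3 (adjusted p = 0.128) nor Tnip1 (adjusted p = 0.162) passed at 36 h, nor did they under a limit of 11000 CPM (0.084 and 0.123), while Traf2 passed with only the compared groups in the fit (adjusted p = 0.0316).

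Whether an agonist's effect itself changed between 18 h and 36 h was tested as the difference of the 2 differences. For TNFR2, 2 of the 10 genes passed, 0 higher and 2 lower, where 6.69% of all genes did (3.68% higher and 3.01% lower). For 4-1BB, 2 passed, both lower, where 4.37% did (2.34% higher and 2.03% lower), and for OX40 1, lower, where 3.48% did (2.1% higher and 1.38% lower). For DR3, 0 passed in edgeR and 0 in DESeq2, where 2.31% of all genes passed in edgeR (1.22% higher and 1.1% lower), and 2 of the 10 had an unadjusted p under 0.05. With the TNFR2 agonist, the rise of Tnfaip3 was smaller at 36 h, with a difference of −0.23 ± 0.06 (adjusted p = 0.00792), and so was that of Tnip1, with −0.23 ± 0.06 (adjusted p = 0.00556). With the 4-1BB agonist, the rise of Tnfaip3 was smaller at 36 h, with a difference of −0.26 ± 0.06 (adjusted p = 0.00239), and that of Otud7b, with −0.23 ± 0.05 (adjusted p = 0.00288). With the OX40 agonist, the rise of Otud7b was smaller at 36 h, with a difference of −0.20 ± 0.05 (adjusted p = 0.0281). For Traf1 and Birc2 the differences over the 4 agonists, −0.12 to 0.06, did not pass. Without the libraries over 10000 CPM of the ribosomal transcript, which leaves 1 control at 18 h, none of the 5 passed. The values were then −0.27 and −0.24 for TNFR2, −0.28 and −0.21 for 4-1BB and −0.19 for OX40, in the same order. With the level of that transcript as a covariate, the TNFR2 values of Tnfaip3 and Tnip1 had adjusted p of 0.093 and 0.09. The OX40 value also did not pass without control at 18 h replicate 1 (adjusted p = 0.0665) or 2 (0.0711), or control at 36 h replicate 3 (0.0636). Nor did it without OX40 agonist at 18 h replicate 2 (adjusted p = 0.285) or OX40 agonist at 36 h replicate 1 (0.0611) or 3 (0.0753). In turn, Birc3 passed for TNFR2 without control at 36 h replicate 3 (−0.18, adjusted p = 0.0493) or TNFR2 agonist at 36 h replicate 3 (−0.21, adjusted p = 0.0142). For OX40, Traf2 (0.29, adjusted p = 0.0395) and Tnfaip3 (−0.26, adjusted p = 0.0126) passed without OX40 agonist at 18 h replicate 1.

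For levels between genes, the authors' TPM values were used, which are scaled by transcript length as well as library size. Traf1 had the highest TPM of the 10 in all 11 groups, at 321, 299 and 311 TPM with the 4-1BB agonist at 18 h, 179, 155 and 168 TPM in the control of that time and 329, 312 and 303 TPM at rest. In resting cells it was followed by Tnfaip3 at 259 ± 16.1 TPM (SD, n = 3), Tnip1 at 182 ± 1.82 TPM and Birc3 at 177 ± 7.53 TPM, of which Tnip1 and Birc3 overlapped. Below them came Cyld at 101 ± 3.77, Birc2 at 79.3 ± 2.04, Traf2 at 55.1 ± 3.03, Traf3 at 45.5 ± 2.86, Map3k14 at 42.7 ± 4.07 and Otud7b at 23.5 ± 1.87 TPM, with overlap between Traf3 and Map3k14. In control cells at 18 h, Tnfaip3 (49.9 TPM on average) ranked the fifth and overlapped with Cyld, and Map3k14 was lowest in all 10 cultured groups.

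Ratios of TPM between members were formed within each library. The ratio of Birc3 to Birc2, the cIAP2 and cIAP1 genes, was 2.59 ± 0.152 with the 4-1BB agonist at 18 h and 3.26 ± 0.29 in the control of that time, against 2.23 ± 0.0769 in resting cells (mean ± SD, n = 3 each). The ratio of Traf1 to Traf3 was 7.24 ± 0.178 with the 4-1BB agonist and 3.52 ± 0.15 in the control, against 6.93 ± 0.513 at rest. The control values lay apart from both, and the ranges of the 4-1BB agonist and resting cells overlapped. The ratio of Traf3 to Map3k14 was 2.59 ± 0.193 with the 4-1BB agonist and 2.46 ± 0.199 in the control, against 1.07 ± 0.0434 at rest, so it differed with culture and overlapped between agonist and control. The ratio of Tnip1 to Tnfaip3 was 1.74 ± 0.0209 with the 4-1BB agonist and 2.38 ± 0.136 in the control, against 0.702 ± 0.037 at rest. The ratio of Tnfaip3 to Cyld was 1.86 ± 0.113 with the 4-1BB agonist and 0.987 ± 0.0455 in the control, against 2.58 ± 0.234 at rest. TPM depends on the estimated mix of transcripts: the mean length assigned to Otud7b was 5193 ± 213 bases in control cells at 18 h, against 6406 ± 597 bases in resting cells, and its control over resting ratio was 1.13 in TPM and 1.01 in CPM. Of 20 such ratios of control over resting cells, 11 differed between TPM and CPM by over 1 SD, and all 20 kept their direction.

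**Figure D5:**
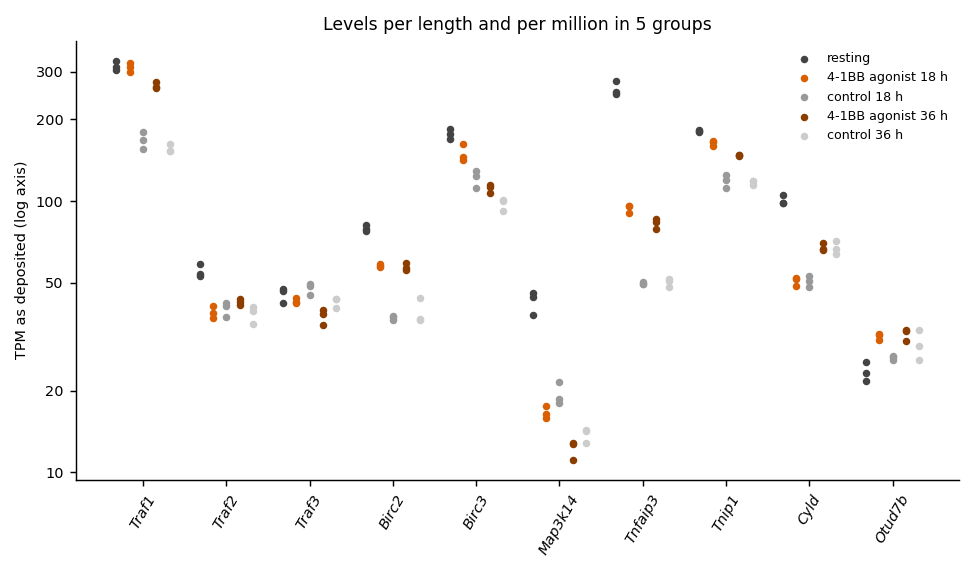
TPM of the 10 genes on a log axis, in resting, control and agonist groups. Traf1 is at the top in every group shown, and Tnfaip3 has a mean of 259 TPM at rest, where it ranks second.

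Over the 11 group means, the root mean square spread of log2 CPM was widest for Tnfaip3 (0.57) and Map3k14 (0.43) and narrowest for Otud7b (0.13), Traf2 (0.13) and Traf3 (0.13). The genes most like each member over the 11 group means were found by the root mean square difference of centred log2 CPM, among 9179 genes with a mean of at least 5 CPM, as a description with no test. For Traf1 these were Gpr132 (0.09), Tmem63b (0.10) and Rora (0.12), on a spread of 0.29 for Traf1 itself over the groups, and Birc2 was the ninth nearest of all genes to Traf1 at 0.14. For Birc2 they were Crtc2 (0.11) and Dock6 (0.11), and for Birc3 Fam53b (0.06), Xxylt1 (0.06) and Plekhm2 (0.06). For Traf2 they were Pik3r2 (0.04), Smg9 (0.05) and Sumf1 (0.06), and for Traf3 Dcun1d2 (0.04), Cacfd1 (0.05) and Fam8a1 (0.05). For Map3k14 they were Suv420h1 (0.07), Dstyk (0.07) and Med13l (0.07). The nearest genes to Tnfaip3 were farther away, H2-Q4 (0.16), Pitpnm1 (0.16) and Prex1 (0.17), on a spread of 0.57 for Tnfaip3. For Tnip1 they were Mob3a (0.08), Vps72 (0.08) and Nol4l (0.09), for Cyld Acap2 (0.04), Mfap1a (0.04) and Cntrl (0.04), and for Otud7b Prkaa1 (0.05), Cnot1 (0.06) and Eps15 (0.06).

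Other genes of the same pathway were counted from lists set by name, and their medians are read beside those of all genes given above. Their counts are read beside the shares of all genes that passed. In control at 18 h against resting these were 40.9% higher and 40.1% lower. With the 4-1BB agonist at 18 h they were 12.7% higher and 13.1% lower. Of 9 other TRAF family genes and TRAF partners, control at 18 h against resting gave 3 higher and 6 lower of 9 tested (median −0.20), and the 4-1BB agonist at 18 h against its control 3 higher and 2 lower of 9 tested (median 0.07). Traf6, the adaptor of the Toll-like receptor and IL-1 pathways, rose by 1.36 ± 0.04 (adjusted p = 3.94e-35) in control cells against resting ones. Traf3ip3, a gene named for its protein's interaction with TRAF3, stood at 88.6, 85.8 and 82.3 CPM in control cells at 18 h, against 288, 294 and 281 CPM in resting cells, and fell by 1.75 ± 0.04 (adjusted p = 4.07e-36). Of 5 other IAP genes and IAP antagonists, the counts were 3 higher and 2 lower of 5 tested (median 0.24) and 1 higher and 0 lower of 5 tested (median 0.03). Birc5, which encodes the mitotic protein survivin, rose by 3.12 ± 0.10 (adjusted p = 8.32e-31) in control cells against resting ones. Of 12 partners of A20 and other deubiquitinases, the counts were 5 higher and 4 lower of 11 tested (median 0.12) and 6 higher and 0 lower of 11 tested (median 0.12). Tnip3, a relative of Tnip1, rose by 1.05 ± 0.10 (adjusted p = 3.78e-12) with the OX40 agonist at 36 h, and Otulin, a deubiquitinase of linear chains, by 0.44 ± 0.05 (adjusted p = 1.55e-09) with the 4-1BB agonist at 36 h. Of 17 genes of the linear ubiquitin complex, RIP kinases, TAK1 and IKK, the counts were 3 higher and 10 lower of 17 tested (median −0.24) and 4 higher and 1 lower of 17 tested (median 0.03). Ikbkb, the IKK2 kinase gene, fell in control cells against resting ones, with a log2 fold change of −1.09 ± 0.04 (adjusted p = 1.08e-29). Of 7 genes on the route from the T cell receptor to NF-kB, the counts were 2 higher and 5 lower of 7 tested (median −0.30) and 2 higher and 4 lower of 7 tested (median −0.10). Prkcq, a kinase gene of that route, fell in the same comparison, with −2.20 ± 0.04 (adjusted p = 6.95e-42). Of 11 NF-kB subunit and IkB genes, the counts were 6 higher and 5 lower of 11 tested (median 0.14) and 8 higher and 2 lower of 11 tested (median 0.52). Nfkb2, the subunit gene of the noncanonical route that NIK opens, stood at 753, 785 and 749 CPM with the TNFR2 agonist at 18 h, against 376, 368 and 376 CPM in the control cells, a difference of 1.03 ± 0.03 (adjusted p = 2.51e-28). Nfkbia, the IkB alpha gene, stood at 476, 462 and 467 CPM with the 4-1BB agonist, against 254, 254 and 256 CPM in the control cells, a difference of 0.88 ± 0.04 (adjusted p = 1.28e-25).

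The receptors themselves changed with culture: Tnfrsf9 (4-1BB) stood at 561, 576 and 558 CPM in control cells at 18 h, against 125, 133 and 140.1 CPM in resting cells, a rise of 2.09 ± 0.04 (adjusted p = 1.98e-41). Tnfrsf4 (OX40) rose by 2.03 ± 0.04 (adjusted p = 2.49e-40), and Tnfrsf25 (DR3) fell by 0.85 ± 0.06 (adjusted p = 1.99e-17). Tnfrsf1b (TNFR2) stood at 507, 508 and 501 CPM in control cells at 18 h and at 333, 316 and 335 CPM in control cells at 36 h, against 388, 368 and 376 CPM in resting cells. It thus rose at 18 h, by 0.42 ± 0.03 (adjusted p = 1.72e-15), and at 36 h fell below its resting level, with a difference of −0.20 ± 0.03 (adjusted p = 9.78e-07). Of the 4 receptor genes, 3 were higher and 1 lower in control than in resting cells at 18 h, and 2 were higher and 2 lower at 36 h. Of all genes, 80.9% passed at 18 h and 84.5% at 36 h. With the 4-1BB agonist at 18 h, Tnfrsf9 stood at 418, 410.1 and 418 CPM, below the control libraries, with a difference of −0.44 ± 0.04 (adjusted p = 1.89e-14). At 36 h it stood at 499, 483 and 493 CPM with the same agonist, against 439, 429 and 433 CPM in control cells, so that the 3 agonist libraries lay above the controls, with a difference of 0.18 ± 0.04 (adjusted p = 0.000109). Tnfrsf9 libraries with the other agonists also lay below the controls at 18 h. They stood at 463 to 522 CPM with TNFR2, 525 to 532 CPM with DR3 and 507 to 537 CPM with OX40. At 36 h these agonist groups also lay above the controls, at 562 to 589, 460 to 482 and 511 to 521 CPM in the same order.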

How the data were processed

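The authors' deposited tables give, per gene and library, expected counts and TPM values, made with RSEM 1.2.28 after FastQC, Trimmomatic and STAR 2.5.3a on build mm10, per the submitters' processing notes. Per the labels' protocols, RNA was extracted with NucleoSpin RNA XS and amplified with SMART-Seq v4. Total expected counts per library, 11880270 to 38083925, set the precision of each value. Expected counts were rounded to whole numbers, which moved 1.17% of values and 0 member values. All 32 libraries entered a single edgeR 4.0.16 quasi-likelihood fit (R 4.3.3, limma 3.58.1), robust, with 1 mean per group, filterByExpr, which left 14313 genes, TMM scaling and Benjamini-Hochberg adjustment. The biological coefficient of variation was 4.02%. TPM served only for levels between genes. Replicate libraries differed beyond sampling noise in all 31 pairs compared. Replicate numbers did not pair the libraries: same-numbered deviations correlated at −0.167 to 0.137. Alternatives were DESeq2 1.42.0, its size factors, upper-quartile scaling, no filter or 5 CPM in 2 libraries, a replicate block, a ribosomal transcript covariate or cut-off, only the groups compared, CPM in place of TPM, and leaving out each library. The members and gene lists were chosen with earlier results of these data known. Named genes outside the members are, per list, up to 3 with the smallest p in control at 18 h against resting and up to 3 over the agonist comparisons, of which some are shown, and the 3 most alike in pattern; a few of these genes are not reported here.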

Additional observations from a re-analysis of the deposited data

Results flagged for a closer look

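In 5 cases the effect of an agonist on a member differed between 36 h and 18 h in the test of that difference itself, always as a smaller rise at 36 h. The share of all genes that passed this test was 6.69% for TNFR2, 4.37% for 4-1BB, 3.48% for OX40 and 2.31% for DR3. The calls depended on which libraries were kept, as given above. For Tnfaip3, which encodes A20, the effect at 36 h minus that at 18 h was −0.233 on the log2 scale with the TNFR2 agonist and −0.263 with the 4-1BB agonist. For Tnip1, its partner gene, it was −0.233 with the TNFR2 agonist. For Otud7b, the Cezanne gene, it was −0.231 with the 4-1BB agonist and −0.2 with the OX40 agonist. The control mean of Otud7b was 80.1 CPM at 18 h and 96.0 CPM at 36 h. In the same order, its means were 98.8 and 101 CPM with the 4-1BB agonist and 97.6 and 101.9 CPM with the OX40 agonist. The agonist effects of 1 time share their control libraries, so these 5 values are not independent of each other.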

How the results depend on the processing

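Over the alternatives, 1229 of 1270 values for members with an agonist against control kept their call, 38 lost and 3 gained it. Of the values that passed in the main fit or the alternative, 0 reversed direction. For values that passed in neither, direction was not compared. Between control and resting cells, 4 values reversed, all at 18 h: Traf3 was −0.05 under upper-quartile scaling and −0.016 under the stricter filter, and Otud7b −0.137 and −0.104; the cause was not tested. The count of members that passed in the OX40 time difference was 1, but 2 under DESeq2, DESeq2 size factors, no filter and the stricter filter, and 0 with the ribosomal covariate, without the libraries over 10000 or 11000 CPM, or with only the groups compared. For TNFR2 the time difference gave 2 members, but 0 with the covariate or without the libraries over 10000 CPM and 1 without those over 11000 CPM, a limit chosen after seeing the data, and for 4-1BB 2, but 0 without those over 10000 CPM. Without those over 10000 CPM, TNFR2 at 18 h gave 5 in place of 8, and the joint test at 36 h 3 in place of 5 under both limits. The first limit leaves 1 control at 18 h, assumed to vary like the other groups. Leaving out 1 library at a time gave 0 to 3 members for the OX40 time difference, 5 to 8 for 4-1BB at 36 h, 7 to 8 for TNFR2 at 18 h, 6 to 7 for OX40 at 18 h and TNFR2 at 36 h, and 4 to 5 for DR3 at 36 h. Without the libraries over 10000 CPM, the count over all genes was 1876 in place of 4456 for TNFR2 at 18 h, 1873 in place of 3690 for 4-1BB, 1150 in place of 2806 for DR3 and 1181 in place of 2724 for OX40. For the time differences it was then 242 in place of 958 (TNFR2), 245 in place of 626 (4-1BB), 63 in place of 331 (DR3) and 90 in place of 498 (OX40), and for the joint tests 1351 in place of 2045 at 18 h and 688 in place of 1297 at 36 h. Without those over 11000 CPM, TNFR2 at 18 h had 2945 genes, the joint test at 36 h 723, and the time differences 471 (TNFR2), 167 (DR3) and 258 (OX40). With the covariate the time differences of TNFR2 and OX40 had 508 and 235, and with only the groups compared the joint test at 18 h had 1167. Leaving out OX40 agonist at 18 h replicate 2 gave 1491 genes for OX40 at 18 h and 160 for its time difference, which had 921 without replicate 1 and also fell by over 1.5 times without OX40 agonist at 36 h replicate 3. DR3 at 36 h had 1191 genes without control replicate 2 in place of 1912, and also fell by over 1.5 times without DR3 agonist replicate 1. Its time difference had 197 without DR3 agonist at 18 h replicate 1, and fell by over 1.5 times without control at 18 h replicate 1 or DR3 agonist at 36 h replicate 2. The replicate numbers did not pair the libraries (0 of 11 pairs of groups had every correlation over 0.1), and with the replicate block the counts stayed at 9 for control at 18 h against resting, 8 for TNFR2 and 4-1BB at 18 h, 6 for DR3 and 7 for OX40, with no member call changed among the comparisons with control or resting cells. Between agonists, with adjustment within each pair, 4 values lost the call under the block (adjusted p = 0.0504 to 0.0723): Birc3 for 4-1BB against OX40 and Tnip1 for DR3 against OX40 at 18 h, and Traf1 for 4-1BB against TNFR2 and TNFR2 against OX40 at 36 h. With 2 or 3 libraries a group, p-values measure only the spread between these libraries. Of 20 level ratios, 11 moved by over 1 SD with CPM in place of TPM.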
